A study of Mus musculus with 3 samples.

Results

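The DEAD and DEAH box RNA helicases were taken as every autosomal protein-coding gene with a symbol of Ddx or Dhx followed by a number. The rule found 51 genes, 35 Ddx and 16 Dhx, among 50600 genes in the tables and 20620 autosomal protein-coding genes. RNA was sequenced from primary T-helper 1 (Th1) cells of C57BL/6NJ mice, a CD4 T cell class known for interferon-gamma. All 3 libraries, replicates 1, 2 and 3, form 1 group, so no treatment, genotype or time could be compared. The labels name a protocol for differentiating CD4+ T cells, 1 donor entry for all libraries and a biosample of its own for each, and give no treatment, age or sex. The file headers add that the cells were taken at 2 hours of a time course of Th1 and T-helper 2 cells, without saying after what. P-values below measure only the spread between these samples, which may be technical in part. Replicate 2 also differed from the others in Y-linked RNA, with 505, 1 and 324 counts of Ddx3y in replicates 1, 2 and 3. The source of that difference was not tested.

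RNA helicases of these families bind RNA and ATP and use the energy of ATP to open short RNA duplexes, to move along RNA or to strip proteins from it. The families are named after 4 conserved amino acids that hold magnesium and ATP in the helicase core. These are the DEAD box in most Ddx proteins and the DEAH box in many Dhx proteins. Members drive the steps of splicing, ribosome assembly in the nucleolus, export of mRNA, translation and decay, and a few sense viral RNA. In T cells, activation raises the demand for splicing and for new ribosomes.

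The codons of the box are shown for 13 genes on which the results turn, so that related genes can be compared by sequence. Each is a stretch of 30 bases read 5′ to 3′ on the coding strand of the longest open reading frame among the GENCODE vM21 transcripts of the gene (GRCm38), with the codons of the box in capitals.
Ddx5: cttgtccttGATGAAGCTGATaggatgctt
Ddx17: cttgtgttgGATGAGGCTGACcggatgctt
Ddx19a: tttgttctgGACGAGGCTGATgtgatgata
Ddx19b: tttgttctgGACGAGGCTGATgtgatgata
Ddx39b: tttattttgGACGAGTGTGACaagatgctt
Ddx39: tttgtgctaGATGAATGTGACaagatgctg
Ddx21: gttgtcctgGATGAAGTCGACcagatgttg
Ddx50: gttgtgcttGATGAAGTAGATcaaatgtta
Dhx15: ataattcttGATGAGGCCCATgaaagaaca
Dhx38: gtcatcatgGATGAGGCCCACgagcgctcc
Dhx8: attatgttgGATGAAGCACACgagaggacc
Dhx9: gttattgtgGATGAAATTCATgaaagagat
Dhx36: attgtacttGATGAAATTCATgaaaggaat

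The first 4 of these genes carry the DEAD box and Dhx15, Dhx38 and Dhx8 the DEAH box. The other 6 carry a variant of the box. Over all members, the reading frame held the DEAD box in 26 of 35 Ddx genes and the DEAH box in 8 of 16 Dhx genes. A variant stood in 5 Ddx genes (Ddx21, Ddx28, Ddx39, Ddx39b and Ddx50) and in 2 Dhx genes (Dhx9 and Dhx36). Ddx11 held the DEAH box in spite of its name, and Dhx29 held the DEAD letters 81.8% of the way along its frame, farther than in any other member. Whether these letters are the box of Dhx29 was not tested, since variants were searched only in frames without DEAD or DEAH. None of the spellings searched was found in 3 Ddx and 5 Dhx genes. For scale, 0.757% of the reading frames of 20489 autosomal protein-coding genes held the DEAD letters and 0.332% the DEAH letters. The DEAD letters of 27 genes, Dhx29 among them, were written in 13 different codings and the DEAH letters of 9 genes in 9. Genes were grouped by these letters, so only the bases could differ within a group.

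Total counts per library were 4442901, 3123869 and 2950658 in replicates 1, 2 and 3. Levels of different genes are compared as TPM, the count per exon length scaled to the same sum in every library. Reads were assigned by strand. Genes with an exon that overlaps an exon on the opposite strand are called opposed here. Genes whose whole span is free of opposite-strand genes are called unopposed, and those in between partial. Opposed genes took 55.1%, 69.1% and 67.3% of the counts of replicates 1, 2 and 3. Values of opposed genes are uncertain, because only the strand tells the reads of the overlapping part from those of the other gene, and whether the strand setting matches the libraries was not tested. A setting opposite to the libraries would touch the unopposed genes too, so their levels are given under the same reserve. All 8 CD4 T cell markers reached 1 TPM in every library. Of 5 Th1 markers 3 did, namely Tbx21, Il12rb2, which is opposed by Serbp1, and Stat4, which is partial. Among the 3 unopposed Th1 markers 1 did. Tbx21 had 19, 7 and 11 counts, Cxcr3 had 6, 2 and 2, and Ifng had 1, 2 and 0. The NK cell and erythroid markers were at 0, as was the B cell marker Ms4a1, while the B cell gene Cd79a had 86, 133 and 83 counts. Of the macrophage markers Lyz2 was at 0, Cd68 had 22, 19 and 12 counts, and Csf1r, which is opposed by Hmgxb3, had 1802, 1179 and 1455. The CD8 gene Cd8b1 had 34, 16 and 10 counts.

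Nearly all DEAD and DEAH box helicases were measured in the Th1 cells. At least 1 TPM in every library was reached by 45 of the 51 (88.2%), against 39.6% of autosomal protein-coding genes. Among the 38 unopposed helicases, 34 did so (89.5%), against 32.9% of unopposed coding genes. Among the 11 opposed helicases, 9 did so (81.8%), against 60.9% of opposed coding genes. The remaining 2 members, Ddx10 and Ddx6, are partial, and both passed.

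The median unopposed helicase stood at 26.6, 16.3 and 16.4 TPM in replicates 1, 2 and 3, which averages 19.8 ± 5.94 (SD, n = 3). The median unopposed coding gene stood at 0 TPM in every library. Among unopposed coding genes that reached 1 TPM in every library, the median was 10.5 ± 3.87 TPM. The 26 unopposed Ddx genes had a median of 24.6 ± 9.42 TPM and the 12 unopposed Dhx genes one of 13.3 ± 4.27 TPM. By mean level, 10 unopposed helicases stood at 50 TPM or more, 18 between 10 and 50, 7 between 1 and 10, and 3 under 1.

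Replicate 1 had the highest TPM for 35 of the 38 unopposed helicases, with a median of 1.72-fold over replicate 2 and 1.72-fold over replicate 3. Counts of all unopposed genes took 38.7% of replicate 1, 25.6% of replicate 2 and 27.8% of replicate 3. Within the counts of unopposed coding genes, the unopposed helicases took 1.57%, 1.79% and 1.58%. On that measure replicate 2, not replicate 1, was the highest. The order of the 38 genes was close between libraries, with Spearman's rho of 0.981 between replicates 1 and 2 and 0.979 for the other pairs. These values describe the same 38 genes, whose lengths and gene models are shared by the libraries.

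**Figure D1:**
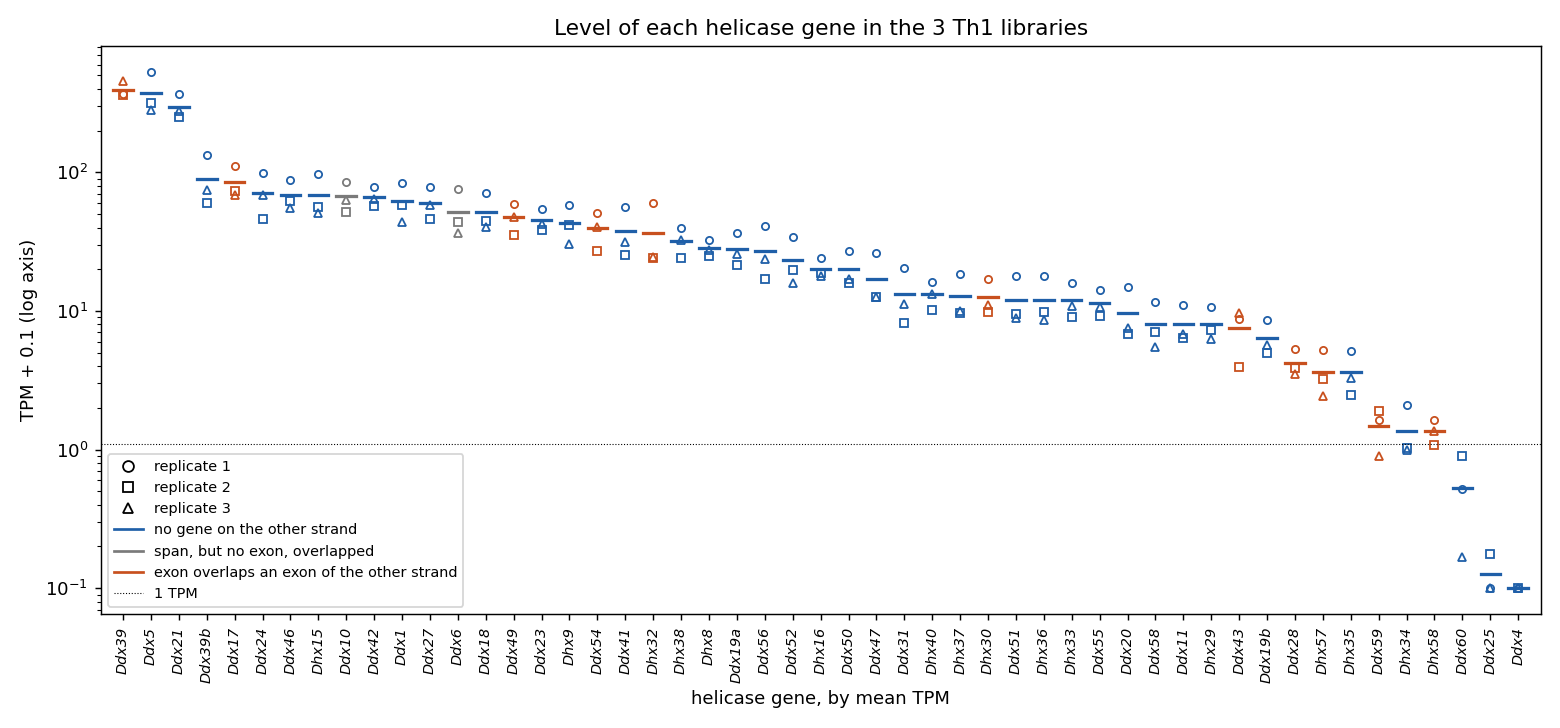
Level of each of the 51 helicase genes, ordered by mean TPM, as TPM + 0.1 on a log axis; circles, squares and triangles are replicates 1, 2 and 3, bars are means, colours give the strand class and the dotted line marks 1 TPM. Ddx39, Ddx5 and Ddx21 stood at the top, most others lay between 10 and 100 TPM, and Ddx60, Ddx25 and Ddx4 lay under 1 TPM.

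A group of 3 genes held a large part of all helicase counts. Ddx5, Ddx21 and Ddx39 together took 47.2% ± 3.31 of them (SD, n = 3). Ddx39 alone took 11.9%, 18.2% and 21.6% in replicates 1, 2 and 3, the lowest share in replicate 1. Ddx5 and Ddx21, both unopposed, took 29.9% ± 1.72 together.

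The cofactors of transcription and RNA processing held the highest median of the role lists with more than 1 gene, 61.7 ± 20.6 TPM over 5 genes, all at 1 TPM or more. Over the 4 unopposed ones the median was 52.5 ± 17.3 TPM. Ddx5, whose protein is a coregulator of transcription and takes part in splicing and microRNA processing, stood at 532, 315 and 283 TPM (6721, 3411 and 2776 counts). It lies on mm10 chromosome 11, from 106780355 to 106789185 on the minus strand, and its mean level was above that of 99.5% of unopposed coding genes. Its close relative Ddx17 stood at 111, 73.8 and 68.9 TPM. Ddx17 is opposed by Kdelr3, but over 33 bases alone, which is 0.693% of its exon length. Ddx1, which takes part in tRNA ligation, stood at 84.0, 57.6 and 43.5 TPM. Dhx9, or RNA helicase A, opens long duplexes and links transcription to processing. It stood at 58.3, 41.3 and 30.4 TPM. In all 4 genes replicate 1 was the highest and replicate 3 the lowest. Ddx20, a helicase of the SMN complex that builds splicing particles, was the lowest of the list at 9.62 ± 4.48 TPM.

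The helicases of ribosome assembly in the nucleolus formed the largest list, and all 16 reached 1 TPM in every library. Their median was 25.3 ± 10.7 TPM, and 19.6 ± 6.52 TPM over the 13 unopposed ones. Ddx21, a nucleolar protein that also acts on transcription of ribosomal RNA genes, stood far above the rest at 365, 249 and 279 TPM (4138, 2417 and 2449 counts). It lies on chromosome 10, from 62580251 to 62602281 on the minus strand. Its neighbour and paralog Ddx50, from 62615895 to 62651218 on the same strand, stood at 27.1, 15.7 and 16.8 TPM. Ddx24, a nucleolar helicase of the large subunit, stood at 99.1, 46.1 and 69.0 TPM, and Ddx10 at 85.7, 52.0 and 63.5 TPM. In both genes replicate 2 was the lowest. Ddx27, which acts in the maturation of large subunit rRNA, stood at 77.9, 45.8 and 57.6 TPM. Ddx18 stood at 71.4, 44.4 and 40.1 TPM. Ddx49 and Ddx54, both opposed, had 58.99, 34.96 and 47.68 TPM and 51.0, 27.1 and 40.6 TPM. In these 2 genes, as in Ddx24 and Ddx27, replicate 3 lay between the others. The remaining 8 nucleolar genes had mean levels from 11.25 TPM (Ddx55) to 27.15 TPM (Ddx56).

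All 10 spliceosome helicases were unopposed and reached 1 TPM in every library. Their median was 41.4 ± 12.2 TPM. The highest was Ddx39b, which acts in the first assembly of the spliceosome and in mRNA export. It stood at 133, 60.3 and 74.9 TPM, the highest level in replicate 1. Ddx46 and Ddx42, both linked to the U2 particle, stood at 88.7, 62.5 and 55.7 TPM and at 78.7, 57.1 and 64.4 TPM. Dhx15, which takes spent spliceosomes apart, stood at 98.0, 56.0 and 51.2 TPM. Ddx23, which helps to exchange the particles at the 5′ splice site, stood at 54.2, 38.3 and 42.2 TPM. Dhx38, which remodels the spliceosome between the catalytic steps, stood at 39.4, 24.1 and 32.4 TPM. Dhx8, which releases the spliced mRNA, stood at 32.3, 24.8 and 27.4 TPM. The order from Ddx46 to Ddx42 and from Dhx38 to Dhx8 was not the same in every library, so these neighbours in level cannot be ranked. The remaining spliceosome genes were Ddx41 at a mean of 37.5 ± 16.3 TPM, Dhx16 at 20.1 ± 3.34 TPM and Dhx35, the lowest of the list, at 3.53 ± 1.37 TPM.

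In the export list 4 of 5 genes reached 1 TPM in every library. The median was 27.8 ± 7.93 TPM, and 17.1 ± 4.91 TPM over the 4 unopposed genes. Ddx39, named Ddx39a in later annotation and a paralog of Ddx39b, had the highest mean of all members at 365, 363 and 459 TPM (4120, 3514 and 4013 counts). It lies on chromosome 8, from 83715177 to 83726892 on the plus strand, and is opposed by Adgre5. Among the leading 3 genes it alone was highest in replicate 3. Ddx19a and Ddx19b, which strip proteins from mRNA at the nuclear pore, stood at 36.6, 21.3 and 25.5 TPM and at 8.47, 4.90 and 5.59 TPM. They lie side by side on the minus strand of chromosome 8, Ddx19a from 110974996 to 110997800 and Ddx19b from 111003188 to 111031751. Of all stretches of 50 bases in the transcripts of each gene, 28.1% of those of Ddx19a and 12.4% of those of Ddx19b occur in both. How the deposited counts treat reads from shared stretches is not given in the sources used here, so the split between these 2 genes is uncertain.

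The list of translation, storage and decay had 3 of 4 genes at 1 TPM, with a median of 9.96 ± 3.66 TPM. Ddx6, a core protein of P-bodies that links microRNA repression to decapping, led it at 75.5, 43.9 and 36.7 TPM. Dhx36, which opens G-quadruplexes in mRNA, stood at 17.7, 9.65 and 8.53 TPM. Dhx34, a factor of nonsense-mediated decay, had 20, 8 and 7 counts and fell under 1 TPM in replicates 2 and 3. Dhx29, which helps ribosomes to scan structured leaders, stood at 7.96 ± 2.33 TPM. The mitochondrial ribosome pair had a median of 8.34 ± 2.42 TPM. Dhx30 had 17.0, 9.74 and 10.9 TPM and Ddx28 had 26, 16 and 13 counts, both opposed. Ddx11, a DNA helicase of sister chromatid cohesion, stood at 10.9, 6.30 and 6.67 TPM. The 4 genes whose roles are less settled ranged from Ddx59 with 10, 10 and 4 counts to Dhx32 with 60.2, 24.2 and 24.6 TPM. Dhx32 is opposed by Bccip, and replicate 1 stood apart from the other libraries, which were near each other. Dhx40 at 13.1 ± 3.00 TPM and Dhx57 at 3.53 ± 1.44 TPM lay between.

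The innate sensors stood below the median helicase. Ddx58, which encodes RIG-I, the sensor of viral RNA ends, had 178, 92 and 65 counts, or 11.5, 6.96 and 5.43 TPM. Dhx58 encodes its relative LGP2, which lacks the signalling domain, and had 11, 6 and 7 counts, or 1.54, 0.978 and 1.26 TPM. Dhx58 is opposed by Dhx58os. Ddx60, an antiviral helicase, had 8, 13 and 1 counts and stayed under 1 TPM in every library. So 1 of 3 genes of this list reached 1 TPM in every library, a share near the 39.6% of all autosomal coding genes. The mean level of Ddx58 was above that of 80.5% of unopposed coding genes. In bulk samples fewer cells that express a gene and less RNA per cell cannot be told apart.

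Germline helicases were at or near 0 but for an opposed gene. Ddx4, or Vasa, the classic marker of germ cells, had 0 counts in every library, which at 3 counts allows up to 0.481, 0.561 and 0.620 TPM in replicates 1, 2 and 3. Ddx25, a helicase of spermatids, had 0, 1 and 0 counts, and 3 counts correspond to 0.198, 0.231 and 0.255 TPM. Floors and intervals cover counting error only. Ddx43 had 42, 16 and 36 counts, or 8.70, 3.86 and 9.61 TPM, and shares 350 bases of exon with the antisense gene 4930542C12Rik, which had 46, 38 and 45 counts. The germ cell marker Dazl was at 0 in every library. The other marker, Sycp3, had 8, 2 and 1 counts and is itself opposed.

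Most other genes of the same machinery were measured as well. Of 20 related helicases without a Ddx or Dhx symbol, 18 reached 1 TPM in every library, against 39.6% of autosomal protein-coding genes. The median of the 20 was 13.5 ± 4.66 TPM. All 10 unopposed ones reached 1 TPM in every library, against 32.9% of unopposed coding genes. Eif4a1, the helicase of cap-dependent translation, stood at 354 ± 160 TPM, in the range of Ddx5 and Ddx21. Eif4a3, the anchor of the exon junction complex, stood at 91.7 ± 36.9 TPM. Ifih1, which encodes the sensor MDA5, stood at 3.18 ± 0.708 TPM, with 71, 40 and 41 counts. Of 37 partners that activate or anchor helicases, 36 reached 1 TPM, with a median of 23.8 ± 9.36 TPM. Among the unopposed partners 21 of 22 did so, against the same 32.9% of unopposed coding genes. Both lists were chosen as parts of this machinery, and the remaining genes in them are opposed or partial. Mavs, the adaptor of RIG-I, was near the bottom at 1.90 ± 0.275 TPM. These values are means ± SD over the 3 libraries.

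The 11 opposed helicases formed 12 pairs with genes of the other strand, since Ddx54 has a pair of them. The shared part was between 0.693% and 29.8% of the helicase's exons. Genes met end to end in 6 pairs, start to start in 4, and lay one within the other in 2. Per kilobase of exon, the gene on the other strand had more summed counts than the helicase in 7 pairs and fewer in 5.

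The widest gap was in Ddx54. The antisense gene Gm43579 has 66.5% of its exon length inside Ddx54 exons (869 bases) and carried 9264 summed counts, against 1417 for Ddx54. That is 7088 against 231 counts per kilobase. Homer3 lies end to end with Ddx49 over 874 bases and carried 1313 against 276 counts per kilobase. Dhx58os carried 54.6 against 7.34 counts per kilobase of Dhx58. In these pairs the helicase was the lower partner in every library.

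In the pair of Ddx39 and Adgre5 the helicase was the higher partner. They share 895 bases, 17.4% of the exons of Ddx39 and 23.8% of those of Adgre5, the gene of the adhesion receptor CD97. Ddx39 had 2259 summed counts per kilobase and Adgre5 had 471. Adgre5 had 815, 483 and 471 counts in replicates 1, 2 and 3. Its part in the level of Ddx39 was not tested. Ddx17 stood at 498 against 47.4 counts per kilobase of Kdelr3, and Dhx57 at 21.1 against 0 for Morn2. Ddx28 stood at 24.3 against 3.27 for Dus2, on 55 and 11 summed counts. Some pairs lay closer, with 219 for Dhx32 against 321 for Bccip and 73.9 for Dhx30 against 107 for Smarcc1.

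**Figure D2:**
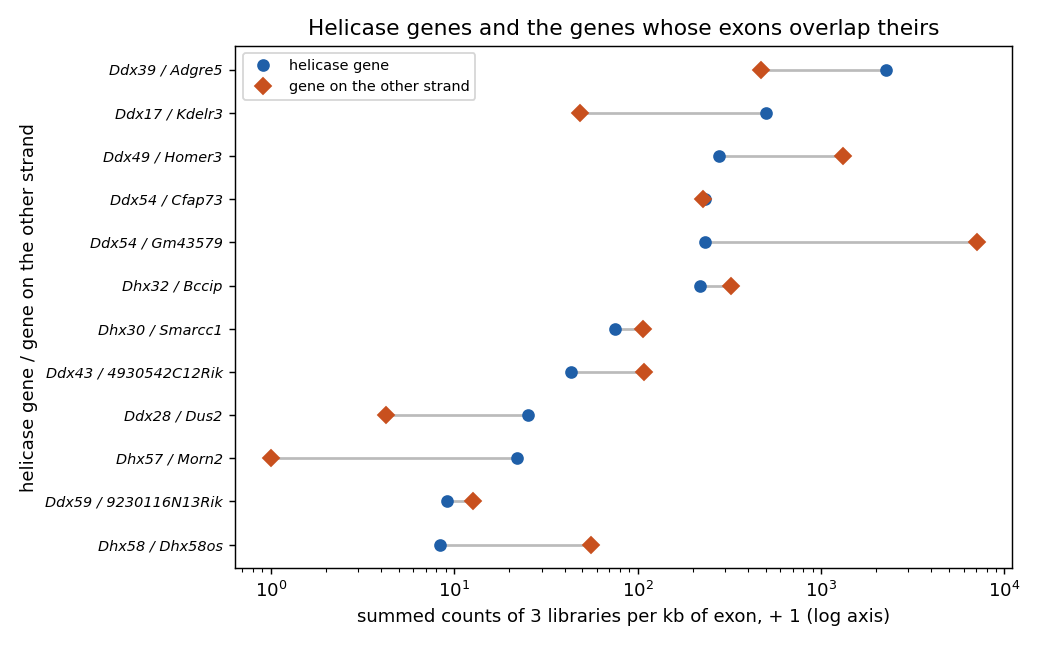
Summed counts of the 3 libraries per kilobase of exon, + 1 on a log axis, for each opposed helicase (circles) and the gene on the other strand (diamonds). The largest gap is that of Gm43579 over Ddx54 (7088 against 231), and Ddx39 lies above Adgre5 (2259 against 471).

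Ratios within a library set related helicases side by side. They are differences of log2(TPM + 0.1), given as mean ± SD over the 3 libraries. Of 10 pairs chosen for relatedness, 8 kept 1 direction in all 3 libraries. With 3 libraries the exact two-sided sign-flip test cannot go below p = 0.25, which these 8 pairs reached, so no ratio could pass a threshold of 0.05.

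Ddx21 exceeded Ddx50 by 3.75, 3.98 and 4.04 log2 units in replicates 1, 2 and 3, a mean of 3.92 ± 0.16. From summed counts per exon base the ratio was 14.8, with an exact 95% interval of 13.95 to 15.75. That interval pools the reads of the 3 libraries and covers counting error only, not the spread between libraries. The gap between Ddx21 and Ddx50 was the widest of the 10 pairs, and their box windows share 24 of 30 bases. Ddx5 exceeded Ddx17 by 2.26, 2.09 and 2.04 log2 units, a mean of 2.13 ± 0.12. Ddx19a exceeded Ddx19b by 2.10, 2.10 and 2.17 log2 units, a mean of 2.12 ± 0.04, with all 30 bases of the box window in common. Its spread was among the smallest of the pairs. Dhx9 exceeded Dhx36 by a mean of 1.87 ± 0.19. Their windows share 23 of 30 bases, and the codons of the box are the same. Ddx58 exceeded Dhx58 by 2.52 ± 0.44, on 335 and 24 summed counts. Of the genes in these pairs, Ddx17 and Dhx58 are opposed, so their ratios are uncertain.

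The log2 ratio of Ddx39b to Ddx39 was -1.46, -2.59 and -2.61 in replicates 1, 2 and 3, a mean of -2.22 ± 0.66. This pair had the largest spread, and replicate 1 stood apart from the other libraries. The ratio of Ddx39b to Ddx39 per exon base was 0.235. Ddx39 is the opposed gene described above. Opposed genes as a whole took 55.1%, 69.1% and 67.3% of the counts of replicates 1, 2 and 3. Whether that bears on this ratio was not tested.

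In the other pairs the genes stood near each other. The mean log2 ratio of Ddx46 to Ddx42 was 0.03 ± 0.21, with replicate 3 below 0 and the others above. The ratio per exon base was 1.04, with a 95% interval of 0.980 to 1.11 for counting error alone. Dhx38 over Dhx8 gave 0.16 ± 0.17 and Dhx40 over Dhx33 gave 0.16 ± 0.14. Ddx27 over Ddx10 gave -0.15 ± 0.02, negative in every library and with the smallest spread. Without length correction the last 2 ratios change sign, because the longer genes, Dhx33 and Ddx27, collect more counts.

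**Figure D3:**
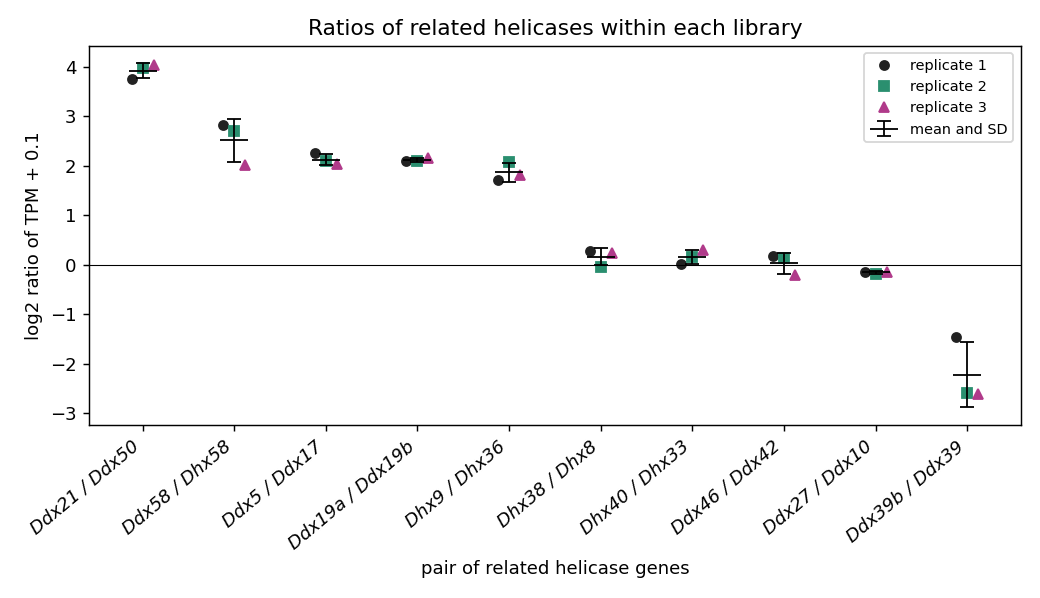
Log2 ratio of TPM + 0.1 between related helicases in each library, with the mean and SD of the 3 libraries. Ddx21 over Ddx50 is the highest (3.92) and Ddx39b over Ddx39 the lowest (-2.22), the pair in which replicate 1 stands apart.

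The replicates were also compared gene by gene, after TMM scaling of the libraries with edgeR. The filter kept 45 helicases, and left out Ddx4, Ddx25, Ddx59, Ddx60, Dhx34 and Dhx58. A chi-square test on the counts, adjusted by Benjamini-Hochberg over 9469 genes, found 23 of 45 helicases (51.1%) to differ between replicates by more than counting noise, against 59.6% of all genes tested. Among unopposed helicases 17 of 34 did so, against 50.2% of unopposed coding genes. The count of 23 became 14 without replicate 1 and 14 without replicate 3. The helicases were thus called about as often as other genes. The differences were small. The highest and lowest library were under 2-fold apart in 22 of the 23 genes. Against the dispersion trend of edgeR no helicase stood out, with 0 calls of 45 and 0 at an unadjusted p under 0.05. Of all genes 24 of 9469 (0.253%) did, and DESeq2 marked 4 genes and no helicase as dispersion outliers. The trend was fitted to these same 3 libraries, so 0 calls do not show that the replicates of the helicases were alike. Ddx43, with a 2.32-fold range, had an unadjusted p of 0.24 in this deviance test.

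Ddx39 had the largest chi-square statistic, which grows with the count as well as with the difference. Its scaled levels lay 0.51 log2 units below its mean in replicate 1, and 0.13 and 0.38 above it in replicates 2 and 3 (adjusted p = 1.06e-183, chi-square test after edgeR scaling). Replicate 1 was the lowest and replicate 3 the highest under the 3 scalings that covered it. Opposed genes as a whole took 55.1%, 69.1% and 67.3% of the counts of replicates 1, 2 and 3. Among the 9 opposed helicases tested, replicate 1 was the lowest for 1 gene and the highest for 3 genes. A link of the share of opposed genes to the pattern of Ddx39 was not tested. Ddx43 had the widest range, 2.32-fold between replicates 2 and 3, on 16 and 36 counts. Dhx32 spanned 1.65-fold, highest in replicate 1. These 3 genes are opposed. Ddx5, the unopposed gene with the largest statistic, spanned 1.27-fold (adjusted p = 6.9e-24, the same test). Dhx9 spanned 1.43-fold and Ddx6 1.39-fold, and both were lowest in replicate 3. The call of Dhx32 was lost without replicate 1 (adjusted p = 0.88, the same test), those of Ddx5 (0.055) and Ddx6 (0.262) without replicate 3, and that of Ddx43 without replicate 2 (0.0636) or 3 (0.363). The calls of Ddx39 and Dhx9 held without any 1 replicate. The 3 smallest statistics were those of Ddx28, Ddx19b and Ddx11.

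Directions that involve replicate 1 depended on the scaling. The median of all genes tested lay 0.43 log2 units higher in replicate 1 than in replicate 2 by total counts, and 0.07 higher by TMM. Of the 17 unopposed helicases called, 8 were called under all 4 scalings tried. The other 6 helicases called were tested under 3 scalings, since 1 fit holds unopposed genes alone, and all 6 were called in each. Among the 23 genes 9 kept the same highest library. Replicates 2 and 3 had nearly equal scaling factors, so their comparison moves little with the scaling, and it is the one described by role.

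Between replicates 2 and 3 alone, 14 of 45 helicases (31.1%) differed by more than counting noise, against 25.6% of all genes. They split into 8 genes higher in replicate 3 and 6 higher in replicate 2. The 4 nucleolar ones, Ddx24, Ddx27, Ddx49 and Ddx54, were all higher in replicate 3, by 0.51, 0.26, 0.38 and 0.52 log2 units. Also higher there were Ddx39 by 0.27, Ddx39b by 0.25, Dhx38 by 0.36 and Ddx43 by 1.22. The cofactors Dhx9, Ddx1 and Ddx5 were lower in replicate 3, with differences of -0.51, -0.47 and -0.22. So were Ddx6, Ddx46 and Dhx15, with -0.32, -0.23 and -0.20. These are 3 cofactors and 4 nucleolar genes from 1 pair of libraries, and the difference between the lists was not tested. Ddx49 and Ddx54 are opposed by genes with more counts per kilobase, Homer3 and Gm43579. The Y-linked helicase Ddx3y had 1 count in replicate 2 and 324 in replicate 3, and its part in these differences, like that of the opposite genes, was not tested.

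Over whole lists, called or not, replicate 3 lay above replicate 2 in 26 of 45 helicases, against 50.2% of all genes and 56.3% of unopposed coding genes tested. By role it did so in 11 of 16 nucleolar genes (median 0.16 log2 units), 7 of 10 spliceosome genes (0.08) and all 4 export genes tested (0.21). It did so in 1 of 5 cofactors (-0.23) and in none of the 3 genes of translation, storage and decay tested (-0.29). These counts describe 1 pair of libraries.

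**Figure D4:**
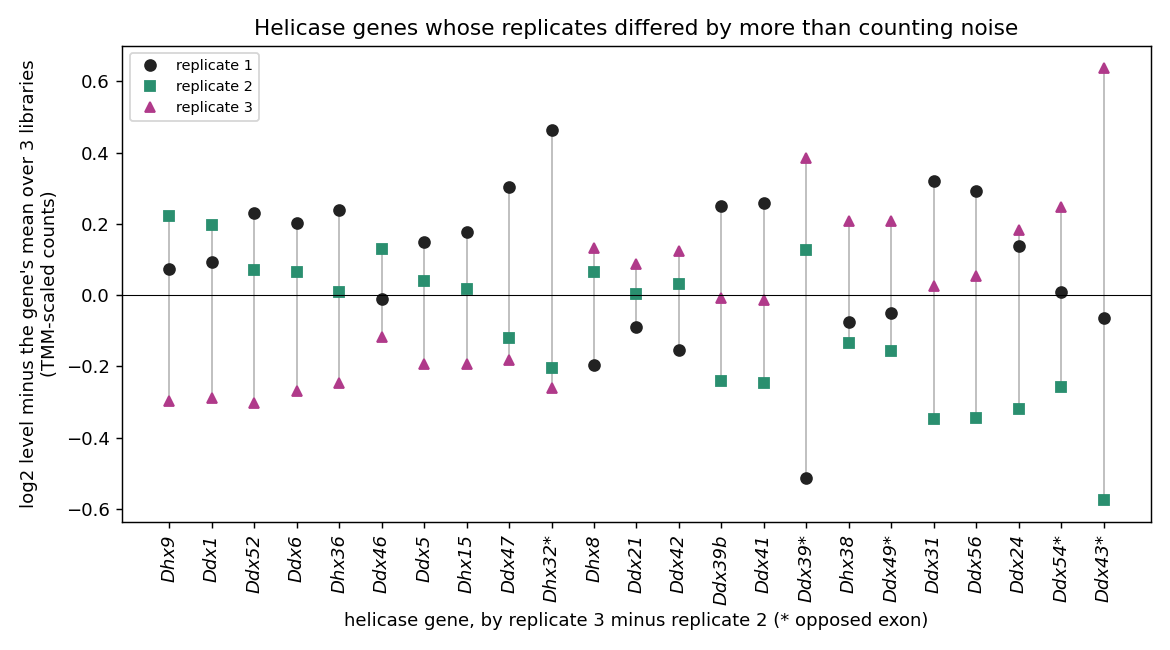
Log2 level of each library minus the gene's mean, after TMM scaling, for the 23 helicases that differed between replicates by more than counting noise, ordered by replicate 3 minus replicate 2; an asterisk marks opposed genes. Dhx9 and Ddx1 lie at the end with replicate 3 low and Ddx24, Ddx54 and Ddx43 at the end with replicate 3 high, while replicate 1 is lowest by far in Ddx39 (-0.51).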

How the data were processed

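RNA-seq was analysed from 3 libraries of Th1 cells. The authors deposited whole-number gene counts without normalization. An alignment step named star2 came first, per the file headers, its version not given in the sources used here. Read pairs were then counted over exons of GENCODE vM13 on mm10 with featureCounts 1.4.6-p4, both mates required, at strand setting 1. Per the labels the assay is total RNA-seq, yet they link a library protocol named for poly(A)+ RNA. Exon lengths and coordinates are those of the deposited files, and no coordinate was converted. Symbols came from GENCODE vM21, which named 50376 of 50600 identifiers (99.56%).

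TPM was computed over all 50600 genes. Strand classes came from bedtools 2.31.1. Replicates were compared in edgeR 4.0.16 (R 4.3.3; TMM, intercept only, filterByExpr at 10 counts), with a chi-square test at 2 degrees of freedom for counting noise and the deviance at the trended dispersion, both one-sided, adjusted by Benjamini-Hochberg at 0.05. DESeq2 1.42.0 was the alternative. The fitting script was tested on simulated data. Log2 ratios used a pseudocount of 0.1 TPM. The 95% intervals are exact binomial on summed counts and leave out the spread between libraries. The members, role lists, pairs and tests were chosen with earlier results of these data known. Genes named were the 12 highest unopposed and 6 highest opposed, those with the 5 largest and 3 smallest noise statistics, those at 3 counts or fewer, the pairs, and the innate and germline members. Others named were chosen after their values were seen, as was the comparison of replicates 2 and 3 by role.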

Additional observations from a re-analysis of the deposited data

How the results depend on the processing

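Of the 38 unopposed helicases 34 reached 1 TPM in every library, and 34 or 35 passed under the alternatives that kept this set. The 35 came from other units, CPM and TPM over unopposed coding genes. With the 2 partial genes added to the set, 36 passed. Their median level, 19.8 TPM, became 47.8 as CPM and 120.0 as TPM over unopposed coding genes, which are other units, and ranged from 16.3 to 21.5 TPM when 1 replicate was left out. The count of helicases above counting noise, 23, became 13 of 34 with unopposed genes alone, 25 with DESeq2 size factors, 33 with total counts and 23 without a filter. Without replicate 1, 2 or 3 it ranged from 14 to 17, with fewer libraries tested. Without replicate 1, 10 calls were lost and 1 was gained. Dhx32 (adjusted p = 0.88, chi-square test after edgeR scaling) and Ddx21 (0.0712) were among the lost. Without replicate 3, 9 calls were lost, among them Ddx5 (0.055), Ddx6 (0.262) and Ddx1 (0.288). Without replicate 2, 7 calls were lost, among them Ddx24 (0.73), and 1 was gained. Ddx43 was lost without replicate 2 (0.0636) or 3 (0.363). No helicase passed the dispersion trend under any alternative run. With 1 replicate left out, the log2 ratio of Ddx46 to Ddx42 ranged from -0.04 (without replicate 1) to 0.15 (without replicate 3) and was -0.02 without replicate 2. As CPM it was 0.47. In CPM, Ddx27 over Ddx10 gave 0.47 and Dhx40 over Dhx33 gave -1.08, since CPM has no length correction. Ddx19a over Ddx19b, 2.12, gave 0.95 as CPM. The other ratios kept their direction. No paired analysis was possible because the series holds 1 group.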

Other observations

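The X-linked and Y-linked relatives, which are not among the 51 genes, gave values that differed between libraries. Ddx3x, an X-linked helicase of translation, had 3172, 1827 and 1104 counts in replicates 1, 2 and 3, or 194 ± 76.2 TPM (SD, n = 3). Its Y-linked copy Ddx3y had 505, 1 and 324 counts. The other Y-linked genes looked at, chosen after Ddx3y had been seen, were Kdm5d with 93, 0 and 82 counts, Eif2s3y with 172, 0 and 131, and Uty with 52, 0 and 30. Replicate 2 thus had 1 count over 4 Y-linked genes, while the labels give 1 donor entry for the 3 libraries and no sex. In any comparison of replicate 2 with replicate 1 or 3, this difference between the libraries and any other cannot be told apart.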
